A study of Mus musculus with 2 samples.

Results

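Endothelial cells of newborn mouse skin were taken from 2 single-cell RNA libraries of dorsal skin on postnatal day 3. The control library has the genotype label Wildtype and the second library miR-200b induced, and Dox is given as the treatment of each. The labels give neither the promoter that drives the induction nor the number of animals pooled, and they name no strain or sex. Cells of the epidermis and the dermis were combined as 30 parts to 70 ahead of loading, so the share of a dermal cell type also carries the mixing and the loading. A barcode, which stands for 1 droplet, counted as endothelial when it passed 2 sets of criteria. It had at least 1000 UMIs (unique molecular identifiers, 1 per captured RNA), 500 detected genes and under 15% mitochondrial UMIs. It also had fewer than 100 keratin UMIs per 10000 and at least 3 of the 6 endothelial genes Pecam1, Cdh5, Kdr, Tie1, Emcn and Egfl7. The members were thus chosen by their measured UMIs. The rule gave 76 control and 70 induced barcodes, 146 of 10436 kept and of 18186 deposited barcodes. With 1 library per group no difference has a replicate check, and the intervals below cover counting error only.

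Endothelial cells line blood and lymphatic vessels and are joined by VE-cadherin (Cdh5), claudin-5 (Cldn5) and Pecam1. They respond to VEGF through the receptor kinases Flt1, Kdr and Flt4 and to angiopoietins through Tek, and Notch ligands such as Dll4 separate arterial and sprouting cells from their neighbours. MicroRNA-200b is an epithelial microRNA that represses messages with a match to its seed in the 3′ untranslated region, among them the transcription factors Zeb1 and Zeb2. Its mature sequence is shown with that of miR-200a, which comes from the same cluster and has another seed. Capitals mark the seed, bases 2 to 8. The sequences are from RefSeq on GRCm38.p6, and mature miR-200b-3p lies on the minus strand at chr4:156055685-156055706.
mmu-miR-200b-3p: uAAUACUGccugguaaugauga
mmu-miR-200a-3p: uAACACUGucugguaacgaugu

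The deposited libraries held 9072 and 9114 barcodes (control and induced, the order used throughout), and 5178 and 5258 were kept. Endothelial barcodes made up 1.47% (exact binomial 95% interval 1.16 to 1.83) and 1.33% (1.04 to 1.68) of kept barcodes, intervals that overlap. Of the keratin-low barcodes, those under the keratin limit, they were 5.47% of 1389 and 4.91% of 1425. Endothelial barcodes of the induced library were shallower, with a median of 9616.5 UMIs (range 1894 to 49616) against 14383.5 (2036 to 91411), and 3093.5 against 4133.5 detected genes. Their median mitochondrial share was 6.86% against 6.04% in the control. Median keratin UMIs were 4.03 per 10000 in the control and 7.45 in the induced library. No barcode sequence was shared between the libraries among the endothelial barcodes, and 74 were shared among all deposited ones. A barcode with at least 3 of 6 genes of pericytes, fibroblasts, melanocytes, immune or Schwann cells was found 4 times in the control library (3 with fibroblast and 1 with pericyte genes). In the induced library 6 such barcodes were found (5 pericyte, 1 melanocyte). Results that rest on these barcodes are given with and without them.

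The values that chose the barcodes are given as a description. Summed over a library's endothelial barcodes, Pecam1 stood at 1147 and 1511 CPM (counts scaled to a library total of 1000000 UMIs) and Cdh5 at 888 and 781. Kdr, the main signalling receptor for VEGF, had 587 and 520 CPM, Tie1 265 and 272, and the sialomucin Emcn 326 and 470. Egfl7, a secreted protein of the vessel wall, had 1134 and 1143 CPM. Of the keratin-low barcodes, 1108 and 1065 had none of the rule genes, 195 and 273 had 1, and 64 and 43 had all 6. Barcodes just outside the rule, with 2 genes, numbered 10 and 17, and their median over 30 further endothelial genes was 0.931 and 0.647 UMIs per 10000, with the highest at 89.9 and 169.7. Barcodes just inside, with 3 genes, numbered 2 and 2, with medians of 13.6 and 86.7 per 10000. Barcodes with all 6 rule genes had 122 and 149 per 10000.

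The endothelial label was checked on 30 endothelial genes that the rule did not use. All 30 were counted, meaning at least 20 UMIs over both libraries, and 30 of 30 were at least 2-fold above the other keratin-low barcodes in each library. Across all genes 9.76% in the control and 10.9% in the induced library passed the same limit. The 15 leading genes among those with 50 CPM or more in both libraries included Gpihbp1, which holds lipoprotein lipase on the capillary wall, at 1257 and 1691 CPM. They also included the tight-junction gene Cldn5 at 849 and 1380 CPM, and Plvap, which forms the diaphragms of fenestrae and caveolae, at 1106 and 1214 CPM. Ctla2a had 847 and 1486 CPM, Rbp7 2003 and 826, and the receptor gene Cd93 634 and 708. Adgrf5 had 346 and 635 CPM, Mmrn2 301 and 442, Ecscr 444 and 508, and the transcription factor Sox17 255 and 293. Icam2, an adhesion molecule of resting endothelium, had 479 and 265 CPM. Ptprb, Flt1, Fabp4 and the lymphatic chemokine Ccl21a complete the list and are described with their groups. Immune genes summed to 7.39 and 0 CPM over 6 genes, so the defining genes of immune cells were at or near 0.

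Of 9096 counted genes, 320 (3.52%) were at least 2-fold higher and 660 (7.26%) at least 2-fold lower in induced endothelial barcodes with Poisson intervals that did not overlap, 10.8% in either direction, and the median log2 ratio was -0.08. These shares are the background for the lists below. Past the fold means this limit, which is one of size and counting error, not a test. Apart from lists of other cell types, the lowest list medians were those of the cell cycle, and the highest were those of capillary, venous and immediate early genes.

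**Figure D1:**
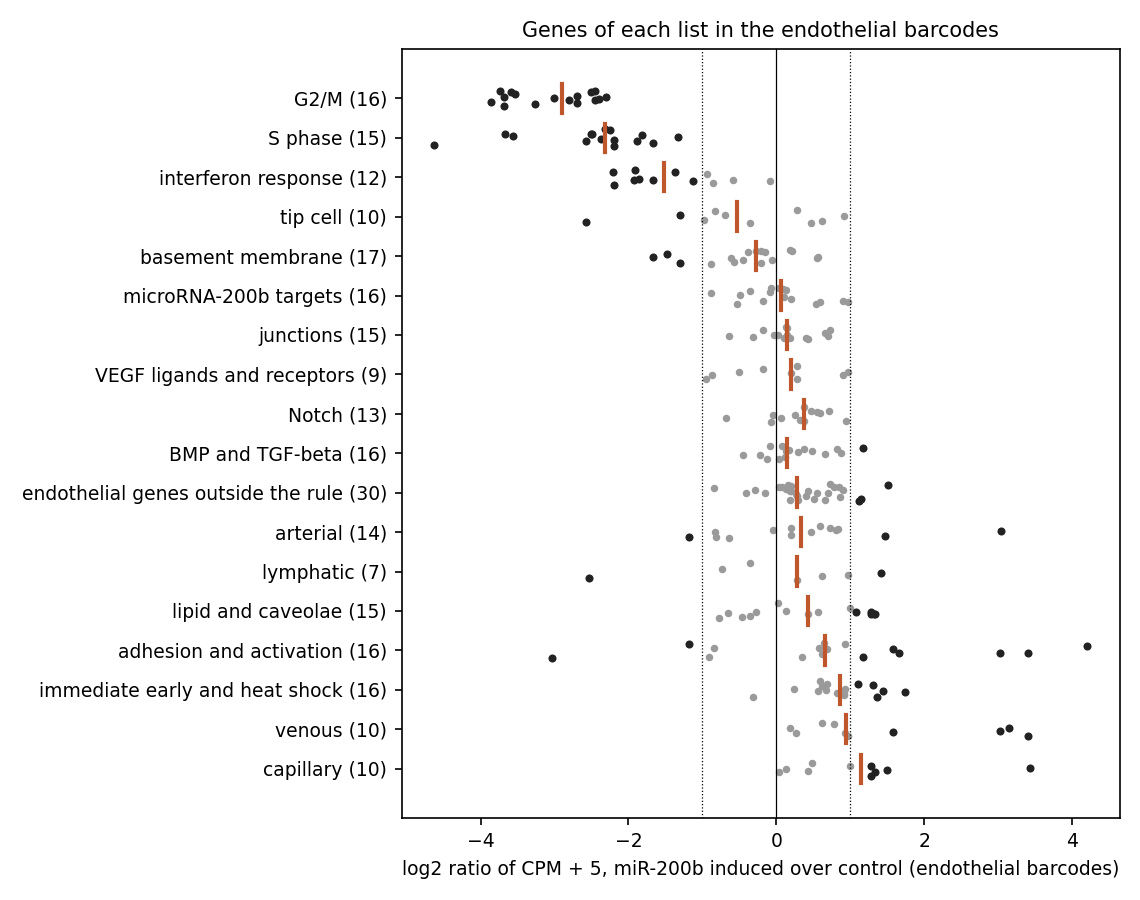
Each point is 1 counted gene of a list, placed by its log2 ratio of CPM + 5 (induced over control endothelial barcodes, x axis). Dark points passed the 2-fold limit with separate counting intervals, orange bars are list medians, dotted lines mark 2-fold, and the number of counted genes stands beside each list. All G2/M and S-phase genes lie to the left of the dotted line, while the 16 genes of the miR-200b target list lie between the dotted lines.

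RNA across the genomic miR-200b locus was measured through Gm13648, an annotated gene on the minus strand of chromosome 4 (156052715 to 156059802 on GRCm38) that spans the miR-200b hairpin at 156055681 to 156055750. A 3′ library does not count the mature microRNA, so its level in endothelial cells was not measured. The labels do not describe the construct, so whether Gm13648 UMIs report the induced transcript was not tested. Gm13648 had no UMI in the 76 control endothelial barcodes, which allows up to 2.01 CPM. It had 18 UMIs in the induced ones, 18.8 CPM (11.2 to 29.8), spread over 14 of 70 barcodes. With barcodes of 2 rule genes included the induced value was 207 CPM. The 17 added barcodes had medians of 4.68 Gm13648 UMIs per 10000 and of 0.647 over the 30 further endothelial genes. Epithelial barcodes, those above the keratin limit, had 2.34 and 529 CPM. Among classes of keratin-low barcodes named here by at least 3 of 6 marker genes, Schwann cells had 0 and 12.9 CPM, fibroblasts 0.156 and 22.3, and pericytes 0 and 341. The 18.8 CPM lie at the low end of this range in the induced library, and the 207 CPM do not. At 2000 UMIs per barcode 1 of 68 induced endothelial barcodes kept a Gm13648 UMI. Whether the 18 UMIs came from free RNA was not tested.

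Genes with a match to the miR-200b seed in the 3′ untranslated region (the letters CAGTATT, searched in the longest annotated region of each gene) were not shifted down in endothelial barcodes. Over the 1525 counted genes with a match the median log2 ratio of induced over control, computed on CPM + 5, was 0.04, against -0.09 over all 8905 counted genes with an annotated region. Of genes with a match 3.48% were at least 2-fold higher and 5.38% lower, and of those without 3.48% and 7.76%. Genes with a match had longer regions, with a median of 2507 against 1230 bases over all these genes. The same median was -0.19 against -0.05 over all genes in epithelial barcodes, and -0.10 against 0.02 in the other keratin-low barcodes. Of 16 counted genes in a list of known targets, none was 2-fold different, and the list's median was 0.06. Zeb1, with 5 matches, had 117 CPM (100 to 136) and 126 (104 to 150). Zeb2, also with 5 matches, had 40.3 and 60.7 CPM. The endothelial factor Ets1, with 3 matches and 404 and 413 CPM, was not past the fold either. Kdr, with 2 matches, was also under it, but as a rule gene it helped choose the barcodes, here and within the list. Flt1, a reported target with no such match in mouse, had 375 (345 to 408) and 708 CPM (656 to 764).

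Cell cycle genes were lower in induced endothelial barcodes throughout. All 16 G2/M genes and all 15 S-phase genes were past the fold, with list medians of -2.90 and -2.32, beside 7.26% lower over all genes. The G2/M genes summed to 1422 CPM in the control and 86.9 in the induced library, a 16.4-fold difference, and the S-phase genes to 1370 and 216 CPM. Mki67, a marker of cycling cells, had 145 CPM (126 to 166) in 33 control barcodes and 6.28 (2.30 to 13.7) in 4 induced barcodes. Top2a, which untangles chromosomes, had 211 and 13.6 CPM, and the mitotic kinase gene Cdk1 143 and 10.5 CPM. The replication clamp Pcna had 244 and 38.7 CPM, and Rrm2, a subunit of ribonucleotide reductase, 144 and 1.05 CPM. Of the 83 induced G2/M UMIs, 42 lay in a single barcode that had only 3 rule genes, and without it the sum was 43.6 CPM. With barcodes of 2 rule genes included, 5 of the G2/M genes were past the fold. Mki67, Top2a and Cdk1 were not among them (log2 ratios of -0.77, -0.81 and -0.93). The 17 induced barcodes so added had a median of 0.647 UMIs per 10000 over the 30 further endothelial genes (highest 169.7). Those with all 6 rule genes had 149. Whether the added barcodes are endothelial was not tested. At 2000 UMIs per barcode, with fewer UMIs under the same limits, 2 G2/M and 5 S-phase genes were past the fold.

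Single barcodes showed the same order. G2/M UMIs per 10000 ranged from 0 to 82.3 with a median of 1.75 over control barcodes, 22 of them at 0. Over induced barcodes the range was 0 to 29.1 and the median 0, with 41 at 0. With each barcode thinned to 2000 UMIs, 22 of 76 control barcodes (28.9%, exact binomial interval 19.1 to 40.5) and 3 of 68 induced barcodes (4.41%, 0.919 to 12.4) had at least 2 G2/M UMIs. Unthinned, the shares were 55.3% and 12.9%. RNA of the cycle genes was thus found in fewer induced barcodes at equal depth as well. Other classes were lower too. The thinned share was 44.4% and 6.25% in pericytes, 8.63% and 1.34% in fibroblasts, 17.6% and 4.76% in melanocytes, 19.8% and 4.17% in Schwann cells, and 21.2% and 10.8% in epithelial barcodes. The fold of summed G2/M CPM was 4.62 in pericytes, 6.89 in fibroblasts and 2.48 in epithelial barcodes, but 1.01 over all other keratin-low barcodes together. No difference between these folds was tested.

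**Figure D2:**
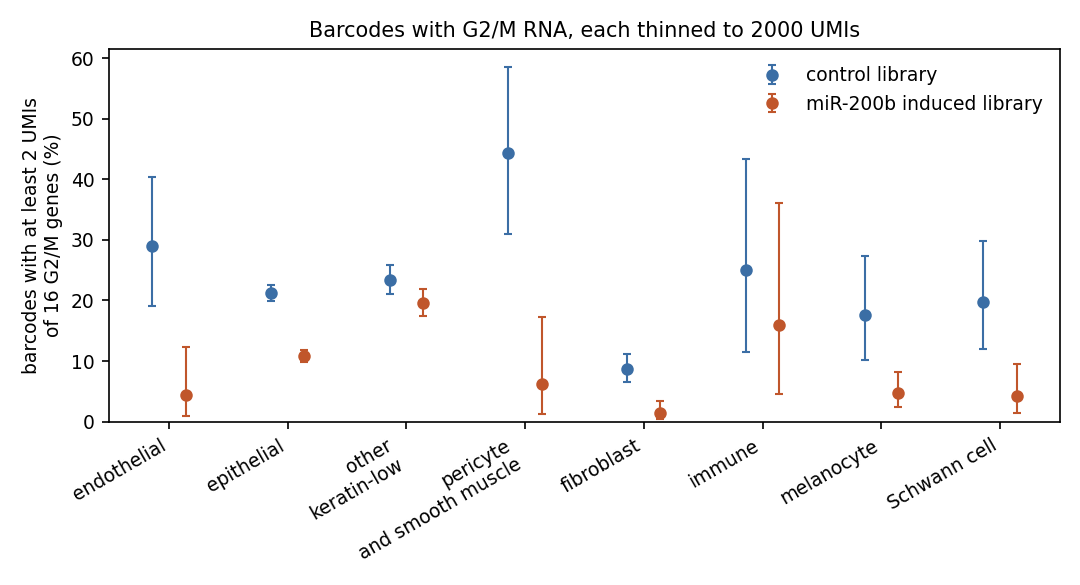
Share of barcodes with at least 2 UMIs of the 16 G2/M genes after thinning each barcode to 2000 UMIs (y axis, percent), by cell class and library. Points are shares and bars exact binomial 95% intervals, and other keratin-low holds all non-endothelial keratin-low barcodes, the named classes included. The endothelial share was 28.9% in the control and 4.41% in the induced library, and it was lower in the induced library in every class shown, with overlapping intervals for immune and other keratin-low barcodes.

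The promoters of the S-phase genes are shown because all of these genes were lower together. E2F factors bind the letters TTTCCCGC, searched on both strands from 250 bases before to 50 after the RefSeq gene start on GRCm38.p6. The letters stood in 4 of the 13 S-phase genes with a promoter entry, and in 1.24% of 27025 genes with an entry. Capitals mark the match, which begins 19 bases after the start of Mcm3 (chr1:20820276-20820303, minus strand) and 165 bases before that of Mcm7 (chr5:138172031-138172058, minus). It begins 138 bases before the start of Cdc6 (chr11:98908003-98908030, plus) and 62 before that of Hells (chr19:38930918-38930945, plus). A match is a description of the letters, not a site of binding. The list was written from known cycle genes, so its share of matches describes the list and not these libraries.
Mcm3: aacttccgtgGCGGGAAAacttgggaag
Mcm7: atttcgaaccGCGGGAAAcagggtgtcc
Cdc6: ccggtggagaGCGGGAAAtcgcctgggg
Hells: accaccgggtTTTCCCGCgaaagagaag
Mcm3 and Mcm7, subunits of the replicative helicase, had 80.6 and 13.6 CPM and 90.0 and 15.7 CPM. The licensing factor gene Cdc6 had 18.8 CPM and none of its UMIs in induced barcodes, and the helicase gene Hells 55.7 and 5.23 CPM.

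Of 10 counted capillary genes 5 were higher past the fold in induced endothelial barcodes and none lower, with a list median of 1.14, beside 3.52% higher over all genes, and their sum was 9500 and 20140 CPM, most of it Fabp4. Per barcode the list ranged from 0.970 to 619 UMIs per 10000 with a median of 57.2 in the control, and from 2.81 to 644 with a median of 114 in the induced library. The ranges overlapped nearly in full. Fabp4, a fatty acid carrier of capillary endothelium and fat cells, had 5503 CPM (5384 to 5623) and 13915 (13680 to 14154), with medians of 3.93 and 61.5 UMIs per 10000. Cd36, a fatty acid receptor, had 730 and 1788 CPM, with medians of 6.09 and 12.9 per 10000. The libraries lay in different clusters of endothelial barcodes, described further on, and the rise of Fabp4 and Cd36 over all barcodes was not found within most of them. A cluster of 2 control and 47 induced barcodes had 4445 and 17912 CPM of Fabp4 and 534 and 2272 of Cd36. The 2 control barcodes were unlike. One, of 46381 UMIs with 5 pericyte genes, had 0.216 Fabp4 and 4.96 Cd36 UMIs per 10000. The other, of 11659 UMIs, had 220 and 6.86, its Fabp4 above the induced value of the cluster. The lower control value of Fabp4 there thus rests on the first barcode. In the other 4 clusters the induced value of Fabp4 was below the control value, with 4008 and 1096 CPM in a cluster of 33 and 9 barcodes, 7603 and 1802 in one of 25 and 1, 7535 and 6118 in the arterial-like and 237 and 80.9 in the lymphatic-like cluster. Cd36 had 782 and 548, 935 and 416, and 729 and 712 CPM in the first 3 of these, and 5.92 (0.150 to 33.0) and 80.9 (29.7 to 176) in the lymphatic-like cluster. Timp4, an inhibitor of matrix proteases, was detected in 21 of 76 and 51 of 70 barcodes, with 27.5 CPM (19.8 to 37.3) and 346 (310 to 386), and in the cluster of 33 and 9 barcodes it had 36.3 and 246. Car4, the carbonic anhydrase of capillary walls, had 17.5 and 58.6 CPM, and the glycerol channel Aqp7 13.4 and 39.8. Gpihbp1, Plvap, Rgcc, Btnl9 and Cd300lg were not past the fold, and at 2000 UMIs per barcode 3 of the list were.

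Lipid handling genes overlapped this list. Of 15 counted genes of lipid transport and caveolae 5 were higher past the fold, Cd36, Fabp4 and Aqp7 among them, and none lower, with a median of 0.43. The lipoprotein receptor gene Scarb1 had 495 CPM (460 to 532) and 1246 (1176 to 1319), and the lipase gene Lpl 16.8 and 40.8. Scarb1 was at 777 and 1342 CPM in the cluster of 33 and 9 barcodes and at 196 and 85.8 in the arterial-like cluster. The caveolar coat genes Cav1 (2362 and 1494 CPM), Cavin1 (638 and 648) and Cavin2 (643 and 528) were not past the fold. Fabp4 and Cd36 were also higher in other stromal classes of the induced library. Fabp4 had 12.0 and 1357 CPM in fibroblasts and 13.1 and 1837 in pericytes, and Cd36 1.56 and 97.4 in fibroblasts and 1.31 and 59.1 in pericytes. Scarb1 in fibroblasts was 33.3 and 48.7 CPM. In epithelial barcodes Fabp4 was 23.9 and 9.96 CPM. Without the barcodes that carried genes of another type the log2 ratio of Fabp4 was 0.84 in place of 1.34, and that of Cd36 1.01 in place of 1.29. The part of free RNA in these values was not tested.

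**Figure D3:**
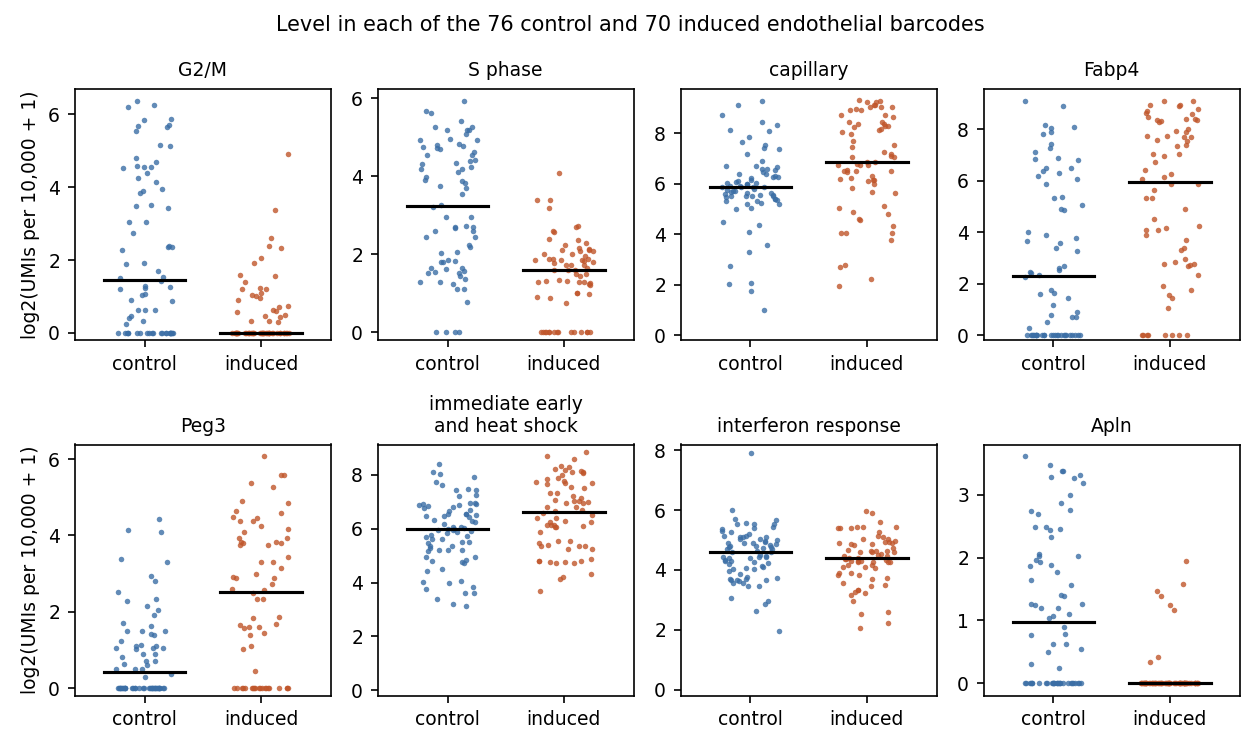
Each point is 1 endothelial barcode, control on the left (76) and induced on the right (70) in each panel, and the bar is the median. The y axis is log2 of UMIs per 10000 plus 1, for the genes of a list summed or for 1 gene. G2/M, S-phase and Apln points reach higher in the control library, Fabp4 and Peg3 medians are higher in the induced library, and a single control barcode stands far above the rest in the interferon panel.

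Of 10 counted venous genes 4 were higher past the fold in the induced library and none lower, with a median of 0.95. Of 16 counted adhesion and activation genes 6 were higher, 2 lower and 8 neither. Among the 34 and 61 barcodes with fewer than 2 G2/M UMIs, 3 of the adhesion and activation genes were higher in place of 6. This cut is on unthinned UMIs, so it leaves out deep barcodes with few cycle UMIs as well as cycling ones. An induced barcode of 49616 UMIs, rich in Sele and Csf3, is left out with only 2 G2/M UMIs. The selectins were found in few barcodes. P-selectin (Selp), which catches leukocytes on venules, had 15.4 CPM in 2 control barcodes and 161 CPM in 10 induced barcodes. E-selectin (Sele) had 7.39 CPM in 4 and 127 CPM in 13 barcodes. In the control library 78.3% of Selp UMIs lay in 1 barcode, and without it the level was 3.38 CPM. In the induced library 43.8% of Sele UMIs lay in 1 barcode of 49616 UMIs that also carried 6 pericyte genes, and without it Sele was at 75.1 CPM. Lrg1, a secreted protein of venules, was more widespread, with 12.8 CPM in 13 and 153 CPM in 32 barcodes. Icam1, the leukocyte ligand, had 215 CPM (192 to 240) in 43 barcodes and 652 (602 to 705) in 44. No cluster had a higher induced value with separate intervals. In the cluster of 2 and 47 barcodes, where 1 control barcode carried 5 pericyte genes, Icam1 had 844 (625 to 1116) and 843 CPM (776 to 914). It had 158 and 170 in the cluster of 33 and 9. In the arterial-like cluster it was lower, with 368 (298 to 451) and 172 (105 to 265). In the lymphatic-like cluster it had 4 and 5 UMIs.

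Several genes of this group are known targets of the inflammatory factor NF-kB. Its inhibitor Nfkbia had 442 CPM (409 to 478) and 1006 (943 to 1071), and the brake Tnfaip3 17.5 and 65.9. Among barcodes with fewer than 2 G2/M UMIs their log2 ratios were 0.41 in place of 1.18 and 0.71 in place of 1.66. The granulocyte factor Csf3 had 2 UMIs in 1 control barcode and 107 in 7 induced barcodes (112 CPM). The same barcode with pericyte genes held 45.8% of them, and without it Csf3 was at 64.0 CPM. Its log2 ratio was 1.33 in place of 4.20 among barcodes with fewer than 2 G2/M UMIs. That cut also leaves out the barcode with pericyte genes, which had 2 G2/M UMIs. The leukocyte chemokine Cxcl1 (43.6 and 71.2 CPM) and the cytokine Il6 (23.5 and 37.7) were not past the fold, and Vcam1 had too few UMIs to be counted. The 2 lower genes were the chemokines Cxcl12, with 318 and 137 CPM, and Cxcl10, which is described with the interferon genes. In fibroblasts Icam1 had 39.2 and 127 CPM and Nfkbia 75.7 and 289, in the same direction, while epithelial barcodes had 121 and 122 CPM of Icam1. Schwann cells went the other way for Icam1, with 30.3 (21.0 to 42.3) and 4.97 CPM (1.61 to 11.6). Immune barcodes did so for Nfkbia, with 690 and 469 CPM. The NF-kB letters are GGG, any 2 bases and TTTCC, searched on both strands. They stood in the promoter window of 6 of 15 list genes with an entry and in 1.89% of all genes. The list was written from known genes of activation, so this share describes the list and not these libraries. Of the 6, Nfkbia and Tnfaip3 were past the fold, and their matches begin 29 and 12 bases before the start, at chr12:55492657-55492686 and chr10:19015403-19015432, both on the minus strand. Capitals mark the match.
Nfkbia: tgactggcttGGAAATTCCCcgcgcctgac
Tnfaip3: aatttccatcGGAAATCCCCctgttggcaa

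Of 16 counted immediate early and heat shock genes 5 were higher past the fold and none lower, with a median of 0.87. Btg2, an inhibitor of proliferation, had 390 CPM (359 to 423) and 1315 (1244 to 1390), and was detected in 64 barcodes of each library. Zfp36, which destabilises cytokine messages, had 363 and 941 CPM, and the orphan receptor gene Nr4a1 70.5 and 157. The heat shock genes Hspa1a (748 and 1854 CPM) and Hspa1b are near-identical copies, so reads can be split between them. Fos had 1133 and 1832 CPM and Jun 1028 and 1813, both under 2-fold. The list summed to 5316 and 16313 CPM in pericytes, 5125 and 15678 in fibroblasts, and 13387 and 9542 in epithelial barcodes. Among the 34 and 61 barcodes with fewer than 2 G2/M UMIs, 1 list gene was higher past the fold in place of 5.

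The interferon list was lower in sum, with 3114 and 2351 CPM, but without a single control barcode the sums were 2453 and 2351 CPM. Of 12 counted genes 8 were lower past the fold and none higher, with a median of -1.52, and without that barcode 1, Isg15, was lower and 1, Rsad2, higher. The barcode had 46381 UMIs, all 6 rule genes, 5 pericyte genes and 212 G2/M UMIs. It held 324 of 334 control UMIs of the chemokine Cxcl10 (97.0%), 141 of 150 of Rsad2 and 57 of 63 of Ifit3. Isg15, a ubiquitin-like protein, had 247 and 61.7 CPM with it and 130 (112 to 150) and 61.7 (47.0 to 79.6) without it. Rsad2, an antiviral enzyme, turned from 101 and 53.4 CPM to 6.24 (2.85 to 11.8) and 53.4 (39.7 to 70.2) without it, a log2 ratio of 2.38. Cxcl10 had 6.93 CPM without it. In the induced library 16 of 22 Cxcl10 UMIs (72.7%) lay in the barcode of 49616 UMIs with 6 pericyte genes, and the level was 23.0 CPM with that barcode and 6.62 without it. Ifitm3 had 1892 CPM without it and 2000 in the induced library. Epithelial barcodes had list sums of 325 and 1148 CPM, higher in the induced library. Interferon regulatory factors bind the letters GAAA, any 2 bases and GAAA again, searched on both strands. These stood in 6 of 9 list genes with a promoter entry and in 3.99% of all genes. The list was written from known genes of this response, so the share describes the list and not these libraries. Rsad2, which was higher without the control barcode, has a match too. In Isg15 the middle one of 3 overlapping matches begins 72 bases before the start (chr4:156200871-156200900, minus strand).
Isg15: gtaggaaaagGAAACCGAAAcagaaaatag

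Genes of sprouting tip cells and of the basement membrane were lower in part. Of 10 counted tip-cell genes 2 were lower past the fold and none higher, with a median of -0.53. Apln, the apelin ligand made at sprouting fronts, had 193 CPM (171 to 216) in 47 control barcodes and 28.3 (18.6 to 41.1) in 8 induced barcodes. Per barcode its median was 0.957 UMIs per 10000 in the control and 0 in the induced library. Among barcodes with fewer than 2 G2/M UMIs its log2 ratio was -1.06 in place of -2.57. Its receptor gene Aplnr (228 and 274 CPM), Dll4 (111 and 155) and Angpt2 (32.2 and 52.3) were not past the fold, and Esm1 had 33.6 and 18.8 CPM. Nid2, which links laminin and collagen IV, had 248 (224 to 275) and 97.3 CPM (78.5 to 119).

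Of 17 counted basement membrane genes 3 were lower past the fold and none higher, with a median of -0.28. Besides Nid2 these were Col15a1, with 450 (416 to 485) and 138 CPM (116 to 164), and Col18a1, the source of endostatin, with 572 and 202 CPM. Col15a1 was detected in 62 of 76 and 31 of 70 barcodes, and its log2 ratio was -1.67, or -1.63 without barcodes that carried genes of another type. The collagen IV genes Col4a1 (2255 and 1731 CPM) and Col4a2 (1251 and 1088), the laminin gene Lama4 (322 and 209), perlecan (Hspg2, 645 and 557) and Sparc (5732 and 3846) were lower by less than 2-fold. In Schwann cells Col15a1 had 88.1 and 22.8 CPM and in fibroblasts 87.7 and 84.7.

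Most receptor and junction genes of the endothelium were within 2-fold. Of 9 counted VEGF genes none was past the fold. Besides Flt1 and the rule gene Kdr, Nrp1 had 427 and 299 CPM and Nrp2 111 and 222, and the lymphatic receptor Flt4 57.1 and 70.1. The ligand Vegfa was low in every class, with 17.5 and 7.32 CPM in endothelial, 17.8 and 15.5 in epithelial and 18.4 and 23.7 in fibroblast barcodes. Vegfb was at 138 and 138 CPM in Schwann cells and at 41.0 and 18.8 in endothelial barcodes. The angiopoietin receptor Tek had 122 and 149 CPM. Its ligand Angpt1 lay in pericytes (34.2 and 39.4 CPM), with 1.34 and 3.14 in endothelial barcodes. Of 4 counted genes of this group Ptprb, a phosphatase that restrains Tek, was higher past the fold, with 324 (295 to 354) and 721 CPM (668 to 777), a log2 ratio of 1.14 that was 0.40 among barcodes with fewer than 2 G2/M UMIs.

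Of 13 counted Notch genes none was past the fold. Notch1 had 154 and 201 CPM, Notch4 73.9 and 111, and the target gene Hey1 90.0 and 86.9. Dll4 was read in endothelial barcodes and at 0.469 and 0.455 CPM in fibroblasts, with no UMI in pericytes. Of 16 counted BMP and TGF-beta genes Tmem100 alone was higher (29.5 and 73.2 CPM). Its log2 ratio was -0.58 among barcodes with fewer than 2 G2/M UMIs, a cut that also changes the mix of clusters. Tmem100 was a leading gene of the arterial-like cluster, at 242 CPM against 11.6 in the other endothelial barcodes. Endoglin (Eng) had 457 and 469 CPM, Acvrl1 131 and 119, and the BMP targets Id1 and Id3 401 and 345 and 689 and 648. Bmp4 lay in fibroblasts, with 106 and 136 CPM. Of 12 counted Wnt genes Axin2 was lower, with 23.5 and 6.28 CPM. Of 15 counted junction genes none was past the fold, Tjp1 (113 and 154 CPM) among them. The list also holds the rule genes Cdh5 and Pecam1, which helped choose the barcodes. None of 15 counted guidance genes was past the fold, with Robo4 at 101 and 114 CPM.

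**Figure D4:**
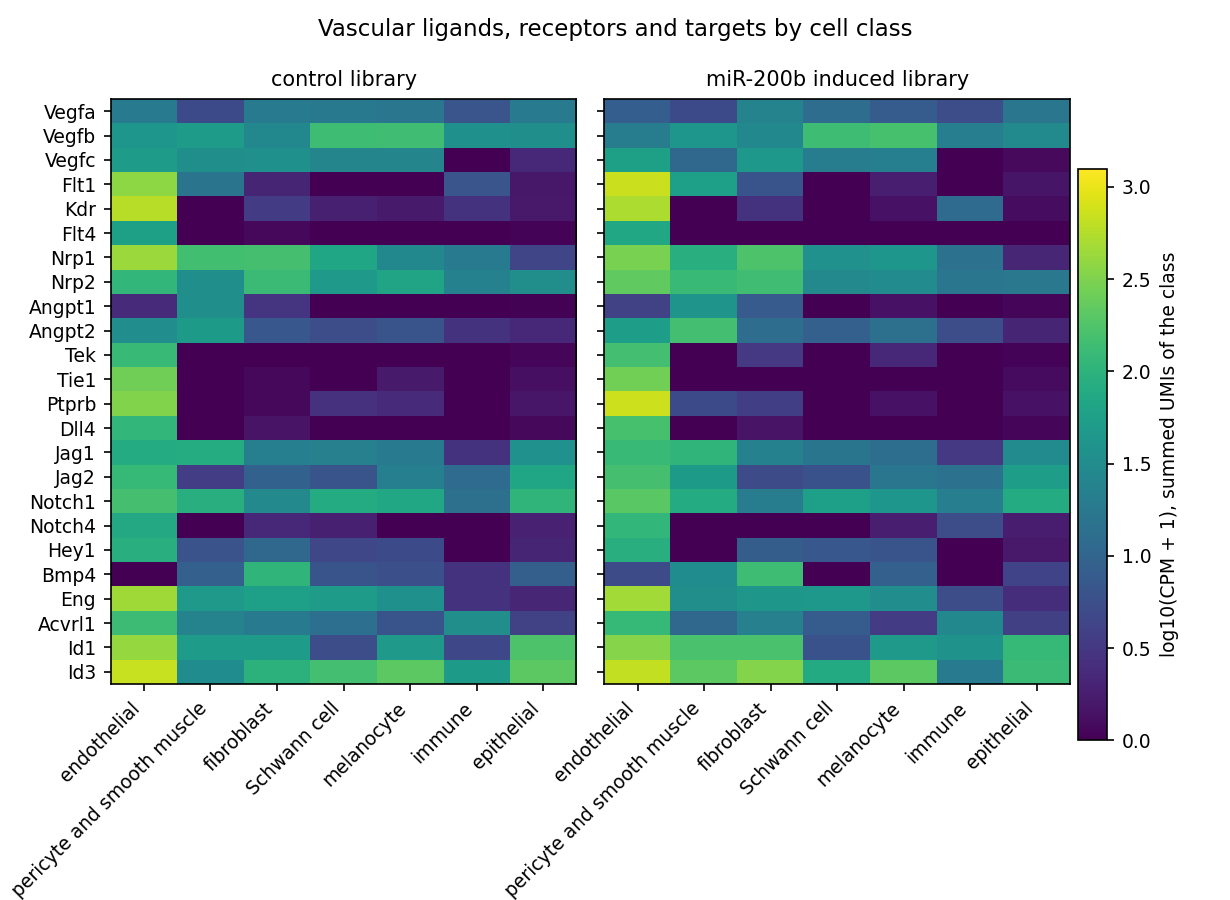
Colour gives log10 of CPM + 1 from the summed UMIs of each class (columns) for vascular genes (rows), control library on the left and induced library on the right. Flt1, Kdr, Flt4, Tek, Tie1, Ptprb, Dll4 and Notch4 are brightest in endothelial barcodes, Angpt1 in pericytes and Bmp4 in fibroblasts, in both libraries. Kdr and Tie1 are rule genes, so their brightness there follows from the choice of barcodes.

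Of 31 counted endothelial transcription factors 3 were higher past the fold and 1 lower. Fli1, an ETS factor of all endothelium, had 130 (112 to 149) and 287 CPM (254 to 323), while its relative Erg had 101 and 146. The flow-responsive factors Klf2 (806 and 1309 CPM) and Klf4 (332 and 493) were under 2-fold. Foxc1 had 16.8 and 42.9 CPM, a log2 ratio of 1.14 that was 0.55 without the top barcode of each library and 0.10 among barcodes with fewer than 2 G2/M UMIs. Gata6 had 4.03 and 15.7 CPM, and there its ratio was 0.44 in place of 1.20. Of 30 endothelial genes outside the rule 3 were higher and none lower. S1pr1, the sphingosine phosphate receptor that stabilises junctions, was among them, with 147 (128 to 168) and 427 CPM (387 to 470) in 58 and 61 barcodes. Of 15 counted genes of vessel tone and coagulation, the endothelin receptor Ednrb (39.6 and 132 CPM) and Adamts1 (168 and 406) were higher, the latter by 1.25 on the log2 scale and by 0.69 among barcodes with fewer than 2 G2/M UMIs. Of 12 counted hypoxia genes Bnip3 (17.5 and 40.8 CPM) was higher and Pgk1 (230 and 91.0) lower, with a log2 ratio of -1.29 that was -0.88 among the same barcodes.

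Of 14 counted IGF and imprinted genes 4 were higher and none lower. Peg3, an imprinted zinc-finger gene, had 161 CPM (141 to 183) in 40 barcodes and 1013 (950 to 1079) in 50, with medians of 0.344 and 4.75 UMIs per 10000. Its highest barcodes were at 20.7 and 66.5 per 10000, so the ranges overlapped. In pericytes Peg3 had 26.3 and 134 CPM, in fibroblasts 723 and 1031, and in epithelial barcodes 83.9 and 45.5. The imprinted RNA H19 had 324 and 671 CPM, Meg3 67.8 and 144 in 7 and 9 barcodes, and the receptor Igf1r 104 and 223. Among barcodes with fewer than 2 G2/M UMIs the log2 ratio of H19 was 0.46 in place of 1.04. As a mean over barcodes that of Meg3 was -0.21 in place of 1.04. Igf2 had 177 and 281 CPM and Grb10 242 and 221.

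Lymphatic-like barcodes formed a small separate set. Of 7 lymphatic genes, 6 or 7 were detected in 13 barcodes, 0 to 2 in the other endothelial barcodes and 3 to 5 in none. The set had 6 of 76 control (7.89%, 2.95 to 16.4) and 7 of 70 induced barcodes (10.0%, 4.12 to 19.5), shares whose intervals overlap. Without the barcodes with the highest Scrublet scores, a measure of likely doublets, the share was 1.61% of 62 control and 10.9% of 64 induced barcodes, so the control values below rest mostly on barcodes with high scores. Ccl21a, the chemokine that draws dendritic cells to lymphatic vessels, had 13051 and 11402 CPM in it, although its near-identical copies make the gene assignment uncertain. The receptor Flt4 had 284 and 593 CPM, podoplanin (Pdpn) 284 and 310, and Mmrn1 865 and 1954. Blood-vessel genes were low there, with Fabp4 at 237 and 80.9, Plvap at 178 and 121, and Cd36 at 5.92 and 80.9 CPM. The shared vessel genes Cldn5 (1735 and 2197 CPM) and Pecam1 (669 and 553) were present. The factors Maf (243 and 337 CPM) and Nr2f2 (302 and 580) were above the remaining endothelial barcodes, which had 15.1 and 17.0 CPM and 56.0 and 134 CPM.

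Within the lymphatic-like set Prox1, the master regulator of lymphatic fate, had 2126 CPM (1912 to 2358) in the control and 418 (284 to 593) in the induced library. One control barcode of 91411 UMIs held 289 of its 359 UMIs. Single control barcodes had 0, 4.05, 6.26, 9.54, 18.3 and 31.6 Prox1 UMIs per 10000. Single induced barcodes ranged from 1.92 to 9.43, with a UMI in 7 of 7. The libraries overlapped, and over all endothelial barcodes the difference shrank from 241 and 37.7 CPM to 50.1 and 37.7 CPM without that control barcode. Without the barcodes with the highest Scrublet scores the direction turned, with a log2 ratio over all endothelial barcodes of 2.37 in place of -2.53. Lyve1, the hyaluronan receptor of lymphatic capillaries, stood the other way, with 610 (498 to 740) and 2507 CPM (2159 to 2894) in the set. Its single values ran from 1.55 to 21.6 UMIs per 10000 in the control and from 7.40 to 57.0 in the induced library. The valve factor gene Foxc2 was detected in 3 of 6 and 6 of 7 of these barcodes, with 237 and 121 CPM, and 33 of its 40 control UMIs lay in the same deep barcode.

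**Figure D5:**
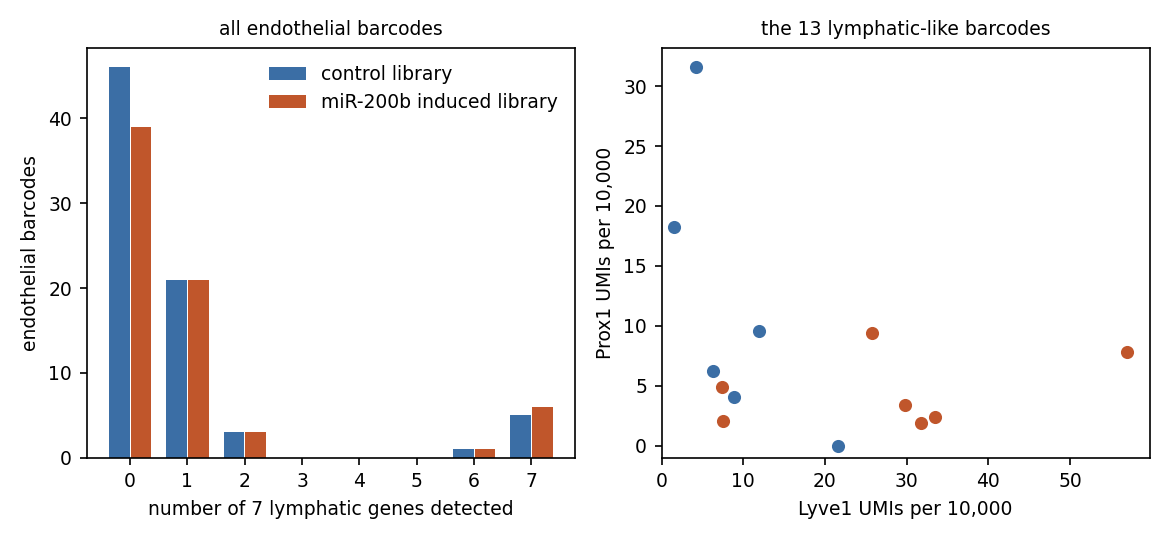
Left, number of endothelial barcodes (y axis) by how many of 7 lymphatic genes were detected (x axis), for each library. Right, Lyve1 (x axis) and Prox1 (y axis) in UMIs per 10000 for each of the 13 lymphatic-like barcodes. No barcode had 3 to 5 genes, the highest Prox1 values belong to 2 control barcodes (18.3 and 31.6), and 5 induced barcodes lie above the highest control value of Lyve1 (21.6).

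Clustering the 146 barcodes gave 5 groups, and 2 of them could be named from markers. An arterial-like cluster of 10 control and 6 induced barcodes had 13 of 14 arterial genes raised and was led by elastin (Eln), Egfl8, Dkk2, Vegfc and the arterial connexin Gja5. Gja5 was detected in 5 control and 4 induced endothelial barcodes. In this cluster it had 114 (76.1 to 163) and 292 CPM (202 to 408), Sox17 725 and 541, and Stmn2 851 and 721. Peg3 had 133 and 901 CPM there and Timp4 7.84 and 197, the direction seen over all endothelial barcodes, while Fabp4 had 7535 and 6118. The lymphatic-like cluster held exactly the 13 barcodes above, where Peg3 had 94.7 and 27.0 CPM. The remaining 3 clusters were mostly of 1 library and stay unnamed. One had 2 control and 47 induced barcodes and was led by Tmem252, Rsad2, Sele and Timp4. Another had 33 and 9, led by Col3a1, Col1a2, Vwa1 and Col15a1. In it 1 control barcode with 5 fibroblast genes held 374 of the 1053 control Col3a1 UMIs and 193 of the 485 of Col1a2. The last had 25 and 1, led by Prc1, Cdca8 and Pclaf, with at least 2 G2/M UMIs in all 26. With 1 library per group such a cluster may be a library and not a cell type.

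Among the arterial genes over all endothelial barcodes 2 of 14 were higher and 1 lower past the fold. Bmx, a kinase of arterial endothelium, had 13.4 and 46.0 CPM, a log2 ratio of 1.47 that was 0.88 without the top barcode of each library. Gkn3 lay in 1 barcode of each library, with 2 and 45 UMIs. The arterial genes Gja4 (367 and 234 CPM), Efnb2 (187 and 215), Hey1 and Jag1 (80.6 and 125) were under 2-fold.

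The 10 genes with the highest and the 10 with the lowest ratio, among genes with at least 50 UMIs, included several that single barcodes carried. Mgp, an inhibitor of calcification, had 1 UMI in the control and 703 in the induced library, of which 95.2% lay in 1 barcode of 46317 UMIs that also held all induced Gkn3 UMIs, and without it the level was 37.4 CPM. Tmem252 had 21.5 CPM (14.7 to 30.3) and 305 (271 to 342), in 14 and 38 barcodes, with 25.1% of the induced UMIs in 1 barcode. Gda, a guanine deaminase, had 5.37 and 83.7 CPM, and Nxpe4 1.34 and 51.3. Tmem252 was at 0.156 and 0.455 CPM in fibroblasts and at 0.0270 and 0.117 in epithelial barcodes. Notch3 had 2.01 and 50.2 CPM, but without barcodes that carried genes of another type its log2 ratio was 0.58 in place of 2.98. With Csf3, Timp4, Sele, Lrg1 and Selp these are the 10 highest.

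The lowest ratios belonged to cycle genes and to fibroblast genes, 3 collagens and the proteoglycan gene Lum. Pclaf, a partner of the replication clamp, had 290 UMIs (195 CPM) in the control and 0 in the induced library, which allows up to 3.14 CPM. The thymidine kinase Tk1 had 121 and 1.05 CPM, the histone gene Hist1h2ap 122 and 2.09, the spindle gene Prc1 92.7 and 1.05, and survivin (Birc5) 159 and 6.28. With barcodes of 2 rule genes included the log2 ratio of Hist1h2ap was -0.67 in place of -4.16 and that of Prc1 -0.83 in place of -4.01, both under the fold. There Tk1 was at -1.30 in place of -4.38, Birc5 at -1.35 in place of -3.86 and Pclaf at -2.37 in place of -5.32. Rrm2 is given above. Col1a1 (454 and 14.6 CPM), Col3a1 (707 and 34.5), Col1a2 (326 and 16.7) and Lum (99.4 and 0) complete the list. The 3 control barcodes with fibroblast genes held 92.6% of the control UMIs of the fibroblast list, which summed to 1713 and 85.8 CPM. Without barcodes that carried genes of another type the log2 ratio of Col1a1 was 0.53 in place of -4.55, and that of Col3a1 -0.30 in place of -4.17. Pericyte genes summed to 67.8 and 345 CPM, with 93.0% of the induced UMIs in 5 barcodes. Haemoglobin genes summed to 453 and 12.6 CPM, and 1 control barcode held 75.6% of the control UMIs, without which the sum was 114 CPM.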

How the data were processed

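Summed UMIs of endothelial barcodes were compared between 2 droplet libraries (10x Genomics 3′ chemistry), 1 per group. The deposited matrices hold raw UMI counts. Per the file headers they were written by Cell Ranger 6.0.0, and per the submitters' processing notes the genome was mm10. The annotation and the calling of cells are not given in the sources used here.

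Endothelial barcodes and gene lists were chosen with earlier results of these data known. UMIs were summed over a library's endothelial barcodes (1489442 and 955642 in all), scaled to CPM with exact Poisson 95% intervals, and compared as log2 ratios of CPM + 5. Genes needed 20 UMIs over both libraries to be counted, and a 2-fold ratio with separate intervals to be past the fold. Intervals of shares are exact (Clopper-Pearson), and a count of 0 allows up to 3 counts. Intervals cover counting error only. No p-value was computed, since cells are not replicates.

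Genes named individually were the rule genes, list genes, the 15 with the highest ratio to other keratin-low barcodes (at least 50 CPM in both libraries), and the 10 highest and 10 lowest log2 ratios among genes with at least 50 UMIs. The last also needed 50 CPM and a level at or above that of epithelial barcodes in the higher library, and mitochondrial, ribosomal, haemoglobin, keratin and sex-linked genes were left out. The calculation was tested on simulated data.

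Barcodes were clustered with scanpy 1.11.5 (Leiden, resolution 0.6, 20 components, 15 neighbours, 1500 variable genes without cycle genes). Scrublet at its own threshold called 3 and 1 doublets, too few to use, so all barcodes were kept and the 7% with the highest scores were left out in an alternative. Python 3.11.15, numpy 2.4.6, scipy 1.17.1 and pandas 2.3.3 were used.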

Additional observations from a re-analysis of the deposited data

Results flagged for a closer look

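In 6 genes that were past the fold in endothelial barcodes, epithelial barcodes differed by at least 2-fold in the opposite direction between the libraries. With 1 library per group this difference between cell types was not tested. Cd36 had a log2 ratio of 1.29 in endothelial and -1.34 in epithelial barcodes, where its level was 11.2 CPM in the control and 1.40 in the induced library. H19 had 1.04 and -3.09, with 291 and 29.8 CPM in epithelial barcodes, and its endothelial ratio was 0.46 among barcodes with fewer than 2 G2/M UMIs. Lpl had 1.07 and -1.95, with 48.0 and 8.69 CPM there. Foxc1 had 1.14 and -1.66, with 49.7 and 12.2 CPM there, and its endothelial ratio was 0.55 without the top barcode of each library, 0.39 without the highest Scrublet scores and 0.10 among barcodes with fewer than 2 G2/M UMIs. Cxcl12 had -1.18 and 1.17, from epithelial levels of 4.14 and 15.6 CPM. Isg15 had -1.92 and 1.07, with 3.47 and 12.8 CPM there, and its endothelial ratio was -1.02 without 1 control barcode.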

How the results depend on the processing

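No paired analysis was possible because each group has 1 library, and for the same reason no replicate could be left out. With at least 2 rule genes, 428 genes were 2-fold lower in place of 660, 5 G2/M genes were lower, and Gm13648 stood at 207 CPM in the induced library. The barcodes so added mostly had few UMIs of the further endothelial genes. With keratin under 50 per 10000, 4 tip-cell genes were lower. Without the barcodes with the highest Scrublet scores 3 immediate early and heat shock genes were higher, lymphatic-like barcodes were 1.61% of the control, and ratios reversed for Foxc2 (1.69), Gkn3 (-0.43), Hbb-bt (0.19), Prox1 (2.37) and Rgs5 (-0.40). Without barcodes that carried genes of another type 1 interferon gene was lower, and Col1a1 (0.53), Cxcl10 (0.048), Dcn (0.034), Ifit3 (0.11) and Rgs5 (-0.38) reversed. With the mean of per-barcode CPM 3 immediate early and heat shock genes were higher, and Foxc2 (0.30) and Meg3 (-0.21) reversed. At 2000 UMIs per barcode 105 genes were higher and 126 lower. Of the lists 2 G2/M, 5 S-phase and 0 interferon genes were lower and 3 capillary genes higher, and Hbb-bt (0.12) and Usp18 (0.093) reversed. Thinning leaves fewer UMIs under the same limits, so fewer genes past the fold need not mean smaller ratios. As a share of keratin-low barcodes endothelial barcodes were 5.47% and 4.91%, and unthinned cycling shares were 55.3% and 12.9%.

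The following were chosen after seeing the data, as was leaving out the lymphatic-like barcodes. One cut left out barcodes with at least 2 unthinned G2/M UMIs, so deep barcodes with few cycle UMIs went too and the cluster mix changed. With it 204 genes were higher and 242 lower. There 2 interferon genes were lower, 3 adhesion and 1 immediate early or heat shock genes were higher, and Ifit1 (0.21), Ifit2 (0.32) and Tmem100 (-0.58) reversed. Without the control barcode with most interferon UMIs 1 interferon gene was lower, Rsad2 was higher past the fold (2.38), and Cxcl10 (1.23) and Ifit3 (0.16) reversed. Without the top induced barcode of Cxcl10 as well, its levels were 6.93 and 6.62 CPM. Without the top barcode of each gene 1 interferon gene was lower and Foxc2 (0.35) reversed. Where no barcodes are named as the difference, the cause was not tested.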
